A study of Mus musculus with 18 samples.

Results

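TGF-β1 + DMII stimulated FOXS1 KO clone 1 was compared with stimulated WT across all genes of the count table, using 6 of the 18 libraries of the series, 3 in each group. Both groups are 10T1/2 cells, a mouse multipotent fibroblast line that can enter the adipocyte or the myofibroblast lineage (GEO's labels spell it CH310T1/2). All 6 had been given TGF-β1 (1 nM, 12 h), followed by 48 h in DMII, an adipogenic mix that holds insulin, indomethacin, dexamethasone and 3-isobutyl-1-methylxanthine. The WT cells carry no edit, whereas clone 1 went through Cas9 editing of *Foxs1*, selection and single-cell cloning. A positive change means a higher level in the libraries labelled FOXS1 KO clone 1. As these 3 libraries come from a single clone, the loss of FOXS1 and the properties of that clone cannot be told apart. Nothing in the labels says whether the 3 libraries of a group are separate cultures, so the p-values measure the spread between these libraries, which may be technical. Later paragraphs also use uninduced WT and uninduced clone 1, which are labelled control and were given neither TGF-β1 nor DMII. Stimulated clone 2, another single-cell FOXS1 KO clone of 10T1/2 cells, is used as well. Each of these groups has 3 libraries.

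TGF-β signals through SMAD proteins and drives fibroblasts towards contractile, matrix-producing myofibroblasts, while it holds back adipogenesis. DMII works through the glucocorticoid receptor and cAMP, which induce C/EBPβ and C/EBPδ, and these in turn induce the adipogenic regulators PPARγ and C/EBPα. FOXS1 is a forkhead transcription factor, and the comparison asks how cells with an edited *Foxs1* gene differ from WT when both cues have been given.

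The 6 libraries held from 20232140 to 29383944 counts, and levels are given as CPM, the share of a library scaled with TMM library sizes. CPM do not correct for gene length, so values are compared only between libraries of the same gene. Of 54532 genes in the table, 21759 had a count in at least 1 of the 6 libraries and 14317 passed the filter on low counts. Mitochondrial genes took 0.976% to 1.1% of the counts in WT and 1.03% to 1.43% in clone 1. Of 10 mesenchymal fibroblast markers, 9 had a mean of at least 1 CPM in both groups, with summed levels of 23084 to 23401 CPM in WT and 19222 to 19816 CPM in clone 1. Skeletal muscle and endothelial marker lists stayed under 1 CPM in sum in every library, and *Myod1*, *Myog* and *Ckm* were at 0 in all 6. Macrophage and leukocyte markers summed to 4.33 to 5.49 CPM in WT and 15.4 to 22 CPM in clone 1, with *Ptprc*, *Adgre1* and *Tyrobp* at 0 in both groups and *Cd14* as the only member at or above 1 CPM. Epithelial markers reached at most 0.293 CPM in sum and were all at 0 in clone 1, neural and glial markers summed to 11.2 to 12.1 CPM in WT and 6.64 to 7.83 CPM in clone 1, and mature adipocyte markers to 0 to 0.18 CPM and 14.1 to 17.9 CPM. The part of these markers in the results was not tested. In bulk RNA, a lower level in every cell and a smaller share of cells with the transcript cannot be told apart.

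*Foxs1* itself (GRCm38, chromosome 2, 152931898 to 152933208, minus strand) was counted at 3.13, 2.55 and 1.85 CPM in WT and at 53.6, 52.9 and 56.8 CPM in the libraries labelled clone 1. The groups did not overlap, and the level was 21.8-fold higher in clone 1 (log2 fold change 4.44, SE 0.149, edgeR adjusted p = 1.43e-20). In uninduced cells the means were 2.23 ± 0.886 CPM in WT and 25.7 ± 2.04 CPM in clone 1 (SD, n = 3). Stimulated clone 2 was also above WT, at 39.9 ± 2.59 CPM. The paper reports a disrupted locus from sequencing of genomic DNA and loss of FOXS1 protein on western blots of both clones. A count per gene does not show which bases of the transcript were read, so these totals do not check the edit, and every direction given here rests on the labels.

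The threshold for a DEG was an adjusted p below 0.05 in edgeR's quasi-likelihood test together with an absolute log2 fold change above 1. By it 1348 genes were higher in clone 1, which is 9.42% of the tested genes, and 1374 were lower, which is 9.6%. Most had groups that did not overlap (1312 of the higher and 1345 of the lower genes), although 65.9% of all tested genes also had no overlap between these 3 and 3 libraries. Large falls outnumbered large rises. At an absolute log2 fold change above 3 there were 540 falls and 304 rises, and above 5 there were 299 falls and 120 rises. The median of all tested genes was -0.02 on the log2 scale.

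**Figure D1:**
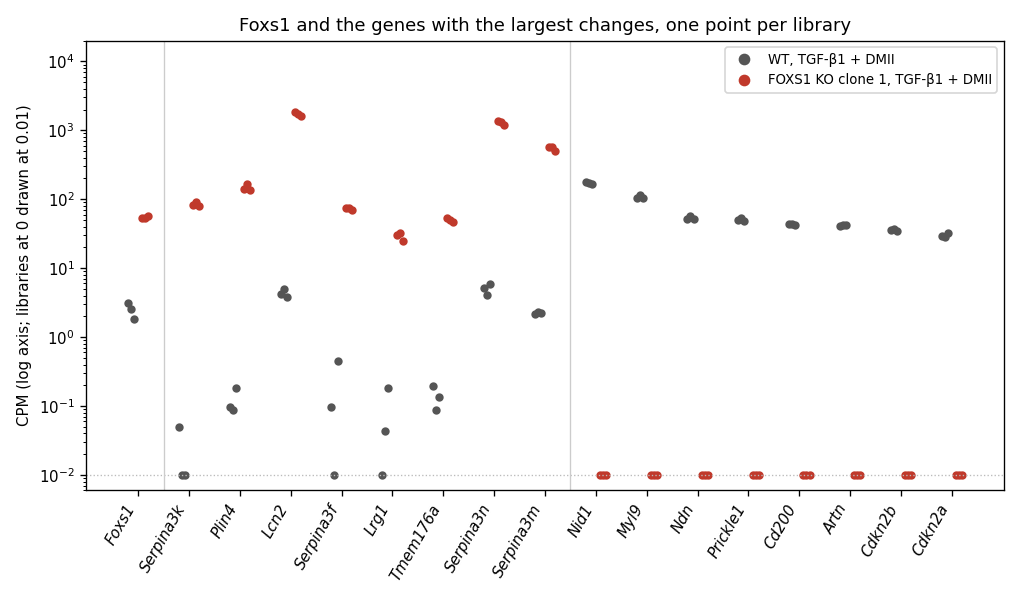
CPM of each stimulated library (log axis, 1 point per library) for *Foxs1*, the 8 largest rises and the 8 largest falls among DEGs that reached a mean of 20 CPM in the higher group. Libraries at 0 are drawn at 0.01. All 8 falls reach 0 in each clone 1 library, whereas WT *Lcn2* stays at 3.83 CPM or more.

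Complement and acute phase genes had the highest median log2 fold change of the 31 lists, 4.21. Of 27 tested members of the list, 20 were higher in clone 1 and 3 were lower. *C3*, the central component of complement, had 46.2, 49 and 37.9 CPM in WT and 2642, 3049 and 2904 CPM in clone 1 (64.6-fold, SE of the log2 value 0.12, adjusted p = 1.27e-15). No libraries overlapped between the groups. *Saa3*, serum amyloid A3, had no count in WT and 7.19, 7.78 and 7.38 CPM in clone 1, which makes it at least 164-fold higher with a floor of 3 counts over the WT group. Outside this list, *Lcn2*, which encodes the iron-siderophore binding protein lipocalin 2 and was counted among the adipokine and glucocorticoid-induced genes, had 4.25, 4.97 and 3.83 CPM in WT and 1843, 1725 and 1590 CPM in clone 1. Every clone 1 library lay far above WT, and the fitted difference was 394-fold (log2 8.62, SE 0.101, adjusted p = 1.19e-26).

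In the contractile and actin cytoskeleton list 15 of 32 tested members were lower, 2 higher and 15 not called. *Myl9*, the regulatory light chain of smooth muscle myosin, had 103, 115 and 103 CPM in WT and no count in any of the 3 clone 1 libraries, at least 2422-fold lower with the same floor. *Acta2*, which encodes α smooth muscle actin and marks myofibroblasts, had 1995, 2133 and 1979 CPM in WT against 316, 302 and 306 CPM in clone 1. It was 6.62-fold lower (log2 -2.73, SE 0.0539, adjusted p = 1.27e-26), and the clone 1 libraries sat close together far below WT.

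The sequence before the transcription start is shown for these 5 genes, as examples of a high rise or fall whose window holds a motif match. They were chosen after their values and matches were seen, and other genes of these lists changed by more. Each run holds the 250 bases up to the start from the RefSeq promoter table of GRCm38.p6, 5′ to 3′ on the strand of the gene. These starts can differ from the gene ends of the deposited file. The *Lcn2* window lies wholly inside the deposited gene (32384633 to 32388252), so its motif letters are not upstream of that gene's outer end. The *Saa3* and *Myl9* windows overlap their deposited genes in part. Capitals mark matches, on either strand, to the motif letters searched.
Lcn2 (chr2:32387740-32387989, minus): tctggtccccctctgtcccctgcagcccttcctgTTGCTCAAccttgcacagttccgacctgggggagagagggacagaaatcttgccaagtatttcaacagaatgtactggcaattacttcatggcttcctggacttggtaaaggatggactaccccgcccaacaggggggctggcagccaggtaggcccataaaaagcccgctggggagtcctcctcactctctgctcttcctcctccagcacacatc
C3 (chr17:57228137-57228386, minus): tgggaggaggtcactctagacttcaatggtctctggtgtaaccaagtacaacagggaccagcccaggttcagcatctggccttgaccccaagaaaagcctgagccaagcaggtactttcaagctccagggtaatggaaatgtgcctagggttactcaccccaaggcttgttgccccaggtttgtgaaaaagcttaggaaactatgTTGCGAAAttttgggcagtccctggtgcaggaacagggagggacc
Saa3 (chr7:46715677-46715926, minus): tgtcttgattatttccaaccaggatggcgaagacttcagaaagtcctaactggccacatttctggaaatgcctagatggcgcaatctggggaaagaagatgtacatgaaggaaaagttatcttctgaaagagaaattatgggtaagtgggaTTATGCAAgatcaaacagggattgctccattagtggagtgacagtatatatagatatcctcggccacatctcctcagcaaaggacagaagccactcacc
Myl9 (chr2:156775214-156775463, plus): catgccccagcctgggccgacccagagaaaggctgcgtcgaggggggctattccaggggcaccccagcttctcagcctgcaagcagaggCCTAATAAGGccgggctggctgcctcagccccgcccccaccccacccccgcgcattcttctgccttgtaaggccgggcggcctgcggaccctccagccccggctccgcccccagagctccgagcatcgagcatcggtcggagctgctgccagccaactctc
Acta2 (chr19:34255374-34255623, minus): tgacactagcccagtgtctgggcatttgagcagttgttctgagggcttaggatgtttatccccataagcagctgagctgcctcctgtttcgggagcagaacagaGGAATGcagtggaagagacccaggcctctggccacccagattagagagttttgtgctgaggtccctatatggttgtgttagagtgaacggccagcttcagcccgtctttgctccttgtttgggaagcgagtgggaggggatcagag

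The motifs searched were TGTTTAC (forkhead), TTGCNNAA (C/EBP), TGANTCA (AP-1), GGAATG (TEAD) and, by name, the CArG box bound by SRF and the NF-κB site. The capitals in *Lcn2*, *C3* and *Saa3* are C/EBP letters, those in *Myl9* a CArG box and those in *Acta2* TEAD letters. The CArG search took only CC, a run of A and T alone, and GG. Near matches with another letter in the run are not capitals, such as ccctatatgg and ccttgtttgg in the *Acta2* window. So the lack of a CArG mark in *Acta2* does not mean that its window lacks an SRF site. A window was found for 10143 of the 14317 tested genes. C/EBP letters were in 9.7% of 845 windows of genes called higher, in 7.66% of 966 windows of genes called lower and in 7.34% of all tested genes' windows. CArG letters were in 1.07% of the higher, 1.86% of the lower and 1.15% of all tested windows. Forkhead letters were in 2.25%, 2.9% and 2.07% of the same 3 sets, and TEAD letters in 11.4%, 12.4% and 10.5%. AP-1 letters were in 6.39%, 4.45% and 4.41%, and NF-κB letters in 7.1%, 6.63% and 5.58%. Over the 27025 windows of the table, C/EBP, CArG, forkhead, TEAD, AP-1 and NF-κB letters were in 9.55%, 1.4%, 3.09%, 12.6%, 6.87% and 4.78%. A match is no more than these letters in this window.

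The full list of acute phase proteins, which the liver and other cells release in inflammation, had 12 of 13 tested members higher and *Ptx3*, a secreted pentraxin, lower. Their median log2 fold change was 7.95, or 6.50 with genes that had no count in a group held at their bound, against -0.02 for all tested genes. *Serpina3n*, a secreted serine protease inhibitor, had 5.23, 4.15 and 5.82 CPM in WT and 1371, 1333 and 1209 CPM in clone 1 (log2 8.01, SE 0.142, adjusted p = 1.81e-17). The Serpina3 genes of chromosome 12 are near-identical copies between which reads may be split, so the values of single members (*Serpina3f*, *Serpina3g*, *Serpina3h*, *Serpina3i*, *Serpina3k*, *Serpina3m* and *Serpina3n*) are uncertain. Those of them on the list count as separate members, so the 12 of 13 and the median rest in part on a single gene cluster. *Hp*, the haemoglobin-binding protein haptoglobin, rose from 12.2, 12.6 and 12.8 CPM to 901, 853 and 754 CPM. *Lbp*, which presents bacterial lipopolysaccharide to CD14, rose from 175 ± 8.97 to 1838 ± 89.1 CPM. *Ptx3* went from 1123, 1146 and 1075 CPM down to 287, 300 and 274 CPM (log2 -1.96, SE 0.0445, adjusted p = 3.78e-25).

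Among complement genes 8 of 14 tested were higher and 2 lower, with a median of 1.86. *C1s1*, a protease of the first complement component, rose from 0.764 ± 0.237 to 14.8 ± 2.3 CPM. *Cd55*, a membrane regulator that speeds the decay of C3 convertases, fell from 8.85, 11 and 10.8 CPM to 0.213, 0.258 and 0 CPM.

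Chemokines and cytokines had 15 of 38 tested members higher and 6 lower, with a median of 0.62. *Cxcl1*, a neutrophil attractant, rose from 5.53, 6.31 and 4.15 CPM to 68.2, 81.6 and 77.5 CPM (log2 3.83, SE 0.129, adjusted p = 4.62e-17). *Cxcl12*, a stromal chemokine, rose from 387 ± 11.2 to 2072 ± 44.4 CPM. *Il6*, an inducer of acute phase proteins, was also higher, at 25.4 ± 1.91 against 11 ± 1.46 CPM. A pair of receptors in this list fell far. *Il13ra1*, a receptor subunit for type 2 cytokines that is encoded on chromosome X, went from 121, 117 and 127 CPM to 0.106, 0.0737 and 0 CPM, and *Il1rl1*, an interleukin 1 receptor family member, from 546, 491 and 566 CPM to 27.5, 26.9 and 29.9 CPM. In the NF-κB list 4 of 20 tested members were higher and none was lower. They were *Nfkbiz*, *Nfkbia*, *Tnip2* and *Relb*, of which *Nfkbia* encodes the inhibitor IκBα and *Nfkbiz* an atypical IκB that rose from 15.5 ± 2.33 to 124 ± 12.1 CPM.

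Adipogenic transcription factors had 12 of 19 tested members higher and 3 lower, with a median log2 fold change of 1.34. *Pparg*, the central regulator of adipocyte differentiation (chromosome 6, 115360951 to 115490399), had 4.6, 4.02 and 3.92 CPM in WT and 35.6, 36.2 and 33.3 CPM in clone 1. The groups were far apart, with an 8.39-fold difference (log2 3.07, SE 0.107, adjusted p = 1.22e-20). *Cebpa* had 48.8, 46.5 and 47.5 CPM in WT and 125, 121 and 109 CPM in clone 1 (log2 1.31, SE 0.0638, adjusted p = 4.26e-17). The early factors *Cebpb* and *Cebpd* rose from 382 ± 13.1 to 965 ± 65.7 CPM and from 272 ± 3.36 to 749 ± 43.9 CPM, though 20.7% and 15% of their exonic bases lie under other genes. *Stat5a*, a transducer of growth hormone signals, rose from 28.7 ± 1.51 to 196 ± 9.81 CPM, and *Rxra*, the dimer partner of PPARγ, from 119 ± 4.2 to 506 ± 28.8 CPM. The 3 members that fell were *Zfp467*, *Ebf2* and *Zfp423*. Of these *Zfp423*, a factor of preadipocyte commitment, went from 10.5 to 4.04 CPM in the mean, and *Ebf2* from 1.5 ± 0.46 to 0.181 ± 0.0834 CPM.

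Genes that restrain adipogenesis had 1 of 14 tested members higher and 3 lower. *Wnt5a*, a secreted Wnt ligand, had 40.3, 39 and 38.8 CPM in WT, and 1 count over the 3 clone 1 libraries. *Gata2*, a zinc finger factor of preadipocytes, fell from 43.6 to 17.4 CPM in the mean, and *Dlk1* from 0.872 ± 0.49 CPM to no count. *Gata3* rose, from 0.573 ± 0.14 to 1.58 ± 0.363 CPM.

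The list for lipid droplets, triglyceride synthesis and lipolysis had 13 of 22 tested members higher and none lower, with a median of 2.06. *Plin4*, a lipid droplet coat protein, had 0.0978, 0.0864 and 0.18 CPM in WT and 139, 165 and 136 CPM in clone 1 (log2 10.17, SE 0.199, adjusted p = 1.32e-22). *Plin2*, a coat protein found in many cell types, had 129, 132 and 132 CPM in WT and 626, 604 and 573 CPM in clone 1 (log2 2.20, SE 0.0469, adjusted p = 7.34e-26). In both genes the clone 1 libraries were all above WT. *Dgat2*, which makes triglyceride, rose from 14.7 ± 0.899 to 156 ± 11.9 CPM. The lipolysis genes *Pnpla2* and *Lipe* rose from 18.2 ± 2.03 to 98.9 ± 5.02 CPM and from 6.78 ± 1.18 to 29.6 ± 2.02 CPM, and *G0s2*, an inhibitor of the lipase encoded by *Pnpla2*, from 6.71 ± 0.296 to 173 ± 10.2 CPM.

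Markers of the mature adipocyte were called but low. *Plin1*, the coat protein of adipocyte lipid droplets, had no count in WT and 7.56, 9.59 and 6.19 CPM in clone 1, at least 174-fold higher. *Fabp4*, a fatty acid carrier, had 0.293, 0.561 and 1.04 CPM in WT and 16.3, 25 and 19.9 CPM in clone 1 (log2 4.99, SE 0.328, adjusted p = 4.26e-13). *Cidec*, which fuses lipid droplets, had 0.0601 ± 0.104 against 7.56 ± 1.03 CPM. *Adipoq*, which encodes adiponectin, had no WT count and 15 counts over the 3 clone 1 libraries (0.16, 0.369 and 0.0911 CPM), and it was no longer called without clone 1 replicate 2 (fitted log2 4.46). *Cfd*, *Lep* and *Adrb3* were at 0 in all 6 libraries.

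Fatty acid uptake and adipokine genes were mixed, with 8 of 21 tested members higher, 3 lower and a median of 0.59. *Acsl1*, which activates fatty acids, rose from 20 to 224 CPM in the mean. The 3 that fell were *Slc27a1*, a fatty acid transporter (10.3, 10.6 and 10.7 CPM in WT, 0.319, 0.848 and 0 CPM in clone 1), *Lpl*, lipoprotein lipase (3.97 ± 0.388 to 0.216 ± 0.213 CPM), and *Angptl4*, an inhibitor of that lipase (161 ± 7.38 to 11.3 ± 1.5 CPM). *Cd36* had no WT count and 0.88 ± 0.276 CPM in clone 1. Fatty acid synthesis stood higher in several enzymes. *Scd1*, the desaturase that makes oleate, had 290, 278 and 284 CPM in WT and 2480, 2715 and 2369 CPM in clone 1 (log2 3.15, SE 0.0698, adjusted p = 2.86e-21), and *Fasn*, fatty acid synthase, rose from 510 ± 10.1 to 1797 ± 204 CPM. Together with sterol synthesis, 8 of 32 tested members were higher and 1, *Acacb*, was lower. In fatty acid oxidation, 5 of 38 tested members were higher and 2 lower, with a median of 0.30. These shares were 13.2% and 5.26%, against 9.42% and 9.6% of all tested genes. *Acadm*, the medium-chain dehydrogenase, rose from 47.6, 45 and 49 CPM to 188, 189 and 189 CPM, while *Pdk4*, a kinase that shuts pyruvate out of oxidation, fell from 936, 912 and 938 CPM to 153, 163 and 172 CPM.

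The list of genes known to be induced by glucocorticoids had 11 of 16 tested members higher and none lower, with a median of 1.40. It is a selection, drawn up with earlier results of these data known. *Pdk4* and *Angptl4*, held by other lists, had higher means in stimulated than uninduced WT (928 against 137 CPM, 161 against 76.6 CPM). Both were lower in clone 1 than in WT, stimulated (log2 -2.51 and -3.82) and uninduced (-5.02 and -5.71). *Fkbp5*, a co-chaperone of the glucocorticoid receptor, had 84.4, 86.6 and 79.2 CPM in WT and 472, 496 and 466 CPM in clone 1 (log2 2.52, SE 0.0792, adjusted p = 1.64e-18). *Glul*, glutamine synthetase, rose from 41.8, 45.1 and 46.3 CPM to 309, 324 and 320 CPM, and *Hsd11b1*, which regenerates active glucocorticoid, from 13.9 ± 1.45 to 119 ± 4.18 CPM. *Nr3c1*, the glucocorticoid receptor gene, which was counted among the adipogenic factors, rose from 40.9 ± 0.993 to 130 ± 7.19 CPM. Both groups received dexamethasone. Not every difference arose with stimulation, since in uninduced cells 2 of the 16 were already higher in clone 1 and 3 were lower. *Hsd11b1* was 1 of these 2, at 177 ± 7 CPM in uninduced clone 1 against 11.3 ± 1.41 CPM in uninduced WT. A positive interaction, that is a larger difference after stimulation, was called for 8 of the 16 and a negative one for none.

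Phosphodiesterases, which break down cyclic nucleotides, had 9 of 14 tested members lower and 2 higher, with a median of -2.07. *Pde3b*, the enzyme that carries the anti-lipolytic effect of insulin in adipocytes, fell from 15.1, 14 and 15.4 CPM to 0, 0.221 and 0.0455 CPM (log2 -7.10, SE 0.533, adjusted p = 3.41e-11). Of 8 cAMP target genes, 3 were higher and none lower, among them *Nr4a1*, an immediate early nuclear receptor, at 180 ± 23.9 against 43.5 ± 6.17 CPM, and *Rgs2*, a regulator of G protein signalling, at 441 ± 23.6 against 97.4 ± 2.19 CPM. *Nr4a1* lies on chromosome 15, whose median log2 fold change was 0.45.

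**Figure D2:**
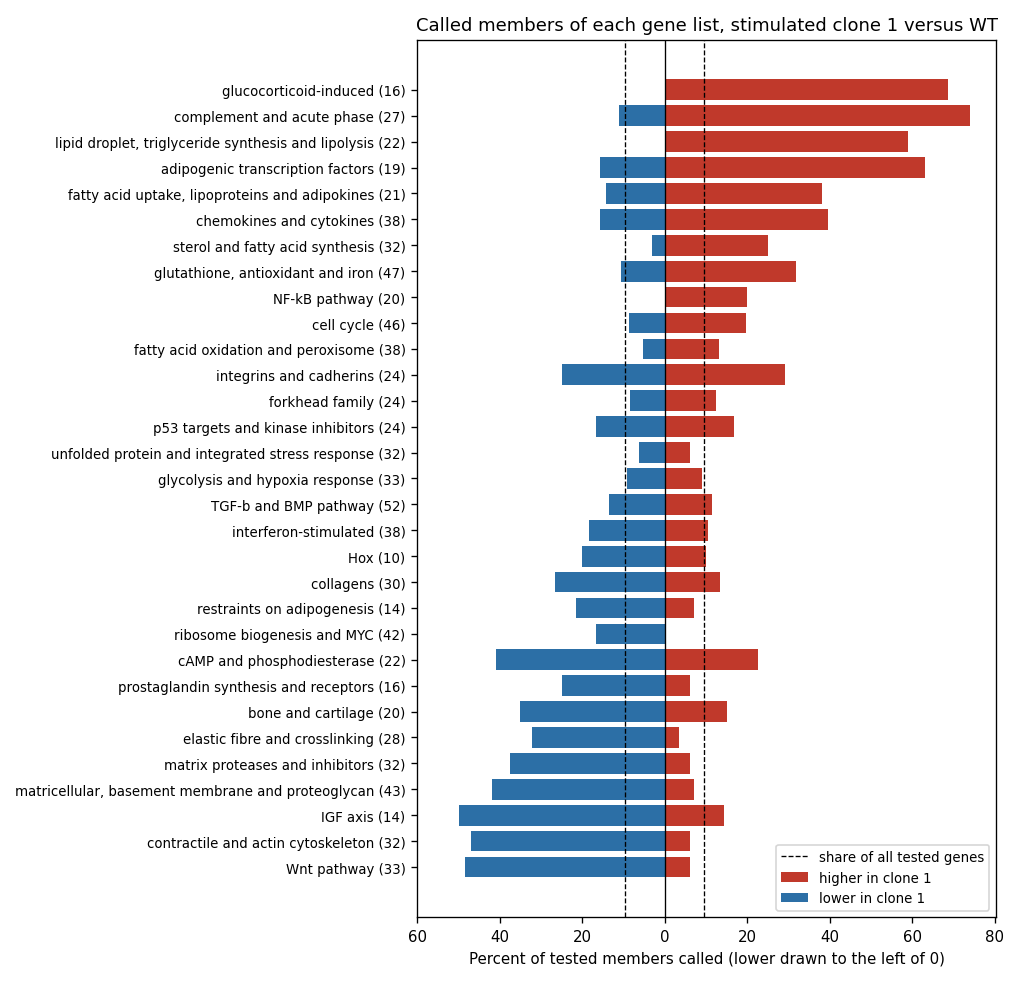
Percent of the tested members of each gene list that were higher (red, to the right) or lower (blue, to the left) in stimulated clone 1, with the number tested in brackets. Dashed lines mark the shares of all 14317 tested genes, 9.42% and 9.6%, and the bars of the glucocorticoid-induced and lipid droplet lists have no lower members.

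The contractile and actin cytoskeleton list had a median of -0.95, and in its smooth muscle part 5 of 11 tested members were lower and 2 higher. *Actg2*, smooth muscle γ-actin, fell from 21.1, 24.2 and 21.2 CPM to 0.106, 0.0737 and 0.319 CPM (log2 -7.04, SE 0.497, adjusted p = 1.42e-10), and *Synpo2*, an actin-bundling protein, from 11.1 ± 1.17 to 0.0933 ± 0.0512 CPM. More widely used cytoskeletal genes fell less. *Actb*, β-actin, which the list does not hold, went from 3273, 3477 and 3193 CPM to 1439, 1449 and 1357 CPM (log2 -1.23, SE 0.0462, adjusted p = 8.21e-20), *Tpm1*, a tropomyosin, from 402 ± 8.24 to 116 ± 3.28 CPM, and *Flna*, filamin A, from 2122 ± 62.4 to 998 ± 55 CPM. *Actb* was no longer called with its change centred on the chromosome median (-0.99). The 2 that rose were *Mylk*, myosin light chain kinase (3.05 ± 0.989 to 10.4 ± 0.813 CPM), and *Des*, desmin (0.15 ± 0.0456 to 0.715 ± 0.13 CPM). *Tagln* was counted at only 0.804 ± 0.0633 and 0.253 ± 0.0688 CPM, with 67.9% of its exonic bases under *Pcsk7* and another gene, so its own level cannot be read from these counts. Its call was lost without any 1 of the 3 WT libraries and without clone 1 replicate 2 or 3, at log2 -1.71 to -1.46.

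Of 30 tested collagen genes, 8 were lower and 4 higher, and none of the 10 fibrillar collagens was called. *Col1a1*, a chain of type I collagen, had 28843, 29415 and 28331 CPM in WT and 30339, 32380 and 30177 CPM in clone 1, a log2 difference of 0.10 (SE 0.0405). For *Col3a1* the means were 19604 ± 243 and 12060 ± 368 CPM (log2 -0.70, SE 0.0366), inside the fold threshold although its libraries did not overlap. *Col7a1*, the anchoring fibril collagen, fell from 162, 171 and 166 CPM to 1.06, 0.553 and 0.957 CPM (199-fold, log2 SE 0.19, adjusted p = 5.42e-21), and *Col8a2* from 218 ± 9.81 to 1.27 ± 0.27 CPM. The basement membrane chains *Col4a1* and *Col4a2* were higher. *Col4a1* rose from 1202, 1306 and 1138 CPM to 5792, 6563 and 6230 CPM (log2 2.35, SE 0.072, adjusted p = 2.8e-16) and *Col4a2* from 1268 ± 64.2 to 4915 ± 332 CPM.

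Other matrix lists lay mostly on the lower side. Matricellular, basement membrane and proteoglycan genes had 18 of 43 tested members lower and 3 higher, a count of higher members that became 5 without clone 1 replicate 1. *Nid1*, nidogen 1, which links laminin to type IV collagen (chromosome 13, 13437551 to 13512269), had 175, 171 and 169 CPM in WT and no count in clone 1, at least 3881-fold lower. *Tgfbi*, a TGF-β induced matrix protein, fell from 267, 254 and 230 CPM to 0.106, 0.147 and 0 CPM (log2 -11.38, SE 0.168, adjusted p = 5.08e-29). The CCN genes *Ctgf* and *Cyr61* were lower too, *Ctgf* at 87.5 ± 0.924 against 371 ± 67.6 CPM. *Prelp*, a leucine-rich proteoglycan, stood out among the rises, at 660 ± 32.8 against 71.5 ± 5.78 CPM. For *Fn1*, fibronectin, the values were 20125, 20748 and 18450 CPM in WT and 9613, 12639 and 10992 CPM in clone 1, a log2 difference of -0.84 (SE 0.105) that did not pass the fold threshold.

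Elastic fibre and crosslinking genes had 9 of 28 tested members lower and 1 higher, and proteases with their inhibitors 12 of 32 lower and 2 higher. *Eln*, elastin, went from 83.7, 80 and 84.7 CPM to 33.3, 31 and 27.4 CPM (log2 -1.44, SE 0.0744, adjusted p = 1.9e-16). *Timp3*, an inhibitor of metalloproteinases, went from 1235 ± 57.4 to 228 ± 12.1 CPM, with 21.3% of its exonic bases under *Syn3*. *Plau*, urokinase, fell from 14, 17.4 and 16.7 CPM to 1.01, 0.59 and 1.41 CPM. Integrins moved both ways. *Itga6* and *Itgb4*, the pair that binds laminin, rose from 7.18 ± 2.06 to 76.9 ± 3 CPM and from 1.94 ± 0.488 to 41.1 ± 2.45 CPM, and *Itga11*, a collagen receptor subunit, fell from 204 ± 14.7 to 12.9 ± 3.92 CPM. In the whole list of integrins and cadherins 7 of 24 tested members were higher and 6 lower.

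In the TGF-β and BMP pathway 6 of 52 tested members were higher and 7 lower, with a median of -0.04. These shares of 11.5% and 13.5% lay near the 9.42% and 9.6% of all tested genes. The 14 intracellular members, SMADs among them, had no call in either direction. *Tgfb1* had 55.7, 61.6 and 53.9 CPM in WT and 62.8, 63.6 and 60.4 CPM in clone 1, and these ranges overlapped (log2 0.13, SE 0.0851, adjusted p = 0.211). *Smad7*, the inhibitory SMAD, had 40.6 ± 4.52 and 23.9 ± 3.84 CPM, a log2 difference of -0.76 (SE 0.114). Secreted members were among the falls, with 4 of 11 tested ligands lower and none higher. Of 8 tested extracellular antagonists 2 were lower and 1 higher. *Nog*, which encodes the BMP antagonist noggin, had no count in WT and 76 counts over the clone 1 libraries, at least 24.6-fold higher. *Grem1*, a BMP antagonist, went from 188, 187 and 184 CPM to 2.02, 1.33 and 1 CPM (131-fold, log2 SE 0.224, adjusted p = 1.23e-14), *Inhba*, the activin A subunit, from 319 ± 11.6 to 43 ± 3.52 CPM and *Il11*, a TGF-β induced cytokine, from 9.52 ± 2.35 to 0.501 ± 0.155 CPM. Of the receptors 4 of 12 were higher and none lower, such as *Acvr1b*, an activin type I receptor on chromosome 15, at 123 against 36.8 CPM in the mean. *Tsc22d1*, a TGF-β stimulated factor, rose from 1398, 1374 and 1259 CPM to 3902, 3745 and 3689 CPM.

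The Wnt list had 16 of 33 tested members lower and 2 higher, with a median of -1.66. In uninduced clone 1, 17 were lower than in uninduced WT and 1 was higher. All 6 tested secreted antagonists were lower, with a median of -6.49, or -5.02 with genes at 0 held at their bound. In uninduced clone 1 all 6 were lower as well (median -4.25), and their median in stimulated clone 2 against WT was -6.59. *Sfrp1*, the best counted of them, had 671, 675 and 609 CPM in WT and 62.6, 64 and 61.2 CPM in clone 1 (log2 -3.38, SE 0.0595, adjusted p = 7.95e-28), *Frzb* went from 50.3 ± 3.28 to 0.424 ± 0.182 CPM and *Dkk3* from 3.36 ± 0.624 CPM to no count. Of 4 tested ligands 3 were lower, and of 16 tested receptors 4 were lower, 1 was higher and 11 were not called. The lower receptors included *Fzd9*, a Frizzled receptor, with 20 CPM in the WT mean and no count in clone 1. *Lef1*, a nuclear effector of β-catenin, rose from 6.3 to 30 CPM in the mean. In the IGF axis 7 of 14 tested members were lower and 2 higher. *Igf1* fell from 252, 257 and 251 CPM to 13.8, 14.7 and 16.7 CPM (log2 -4.07, SE 0.0892, adjusted p = 2e-24), and *Irs2*, the insulin receptor substrate, rose from 44.2 to 139 CPM in the mean.

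Proliferation genes were divided. Of 24 tested G2/M genes 8 were higher (33.3%) and none lower. Among 22 tested G1/S genes 1 was higher (4.55%) and 4 were lower (18.2%). The shares of all tested genes were 9.42% and 9.6%. Over the alternative settings tried, the higher members of both sets together ran from 4 to 30 and the lower from 3 to 8. *Top2a*, a topoisomerase of dividing cells, had 78.7, 91.9 and 80.5 CPM in WT and 204, 228 and 250 CPM in clone 1 (log2 1.44, SE 0.0919, adjusted p = 2.55e-11), while *Ccnd1*, cyclin D1, fell from 53.2, 53.9 and 54.3 CPM to 10.3, 11.3 and 12.1 CPM, although *Oraov1* covers 23.4% of its exonic bases. *Cdkn1a*, the p21 inhibitor, rose from 62.2 ± 3.1 to 253 ± 3.75 CPM. *Cdkn2a* and *Cdkn2b*, the p16/p19 and p15 inhibitors side by side on chromosome 4, had 29.1, 28.7 and 32.8 CPM and 35.5, 36.7 and 34.1 CPM in WT and no count in clone 1, nor in clone 2. *Myc* had 124 ± 9.2 and 115 ± 11.4 CPM (log2 -0.11, SE 0.0731, adjusted p = 0.211). Ribosome biogenesis genes had 7 of 42 tested members lower (16.7%, against 9.6% of all tested genes) and none higher, with a median of -0.61. That lower count ran from 3 to 35 over the alternative settings tried. *Npm1*, nucleophosmin, for example, was at 241 ± 4.02 against 610 ± 5.81 CPM.

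Redox and iron genes had 15 of 47 tested members higher and 5 lower. *Fth1*, ferritin heavy chain, rose from 4560, 4610 and 4587 CPM to 15186, 14244 and 13356 CPM (log2 1.64, SE 0.0436, adjusted p = 1.54e-23), and *Sod2*, the mitochondrial superoxide dismutase, from 107 ± 5.77 to 476 ± 15.1 CPM. Stress response, glycolysis and hypoxia, and forkhead lists lay nearer to the background of 9.42% higher and 9.6% lower. Stress response genes had 2 of 32 tested members higher and 2 lower, and glycolysis and hypoxia genes 3 of 33 in each direction. Interferon-stimulated genes had 4 of 38 higher (10.5%) and 7 lower (18.4%), the last becoming 4 without WT replicate 2 or without clone 1 replicate 1. Of 24 tested p53 target and kinase inhibitor genes 4 were higher and 4 lower, 16.7% each. Of 24 tested forkhead genes 3 were higher, namely *Foxs1*, *Foxf2* and *Foxl1*, and 2 were lower, *Foxd2* and *Foxq1*. The call of *Foxd2* (log2 -1.23) was lost in the test against the fold threshold and on centring by chromosome. Of 10 tested Hox genes 1 was higher and 2 lower, of 20 bone and cartilage genes 3 and 7, and of 16 prostaglandin genes 1 and 4.

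A subset of genes was on in one group and off in the other. With 3 counts or fewer over the 3 libraries of one group and a mean of at least 5 CPM in the other, 50 genes were off in clone 1, of which 31 had no count at all, and 13 were off in WT, of which 6 had none. Of the 50, 37 also had 3 counts or fewer over the 3 uninduced clone 1 libraries, and 28 over the stimulated clone 2 libraries. *Cd200*, a membrane glycoprotein that restrains myeloid cells, had 43.4 CPM in the WT mean, *Robo1*, a Slit receptor, 17.2 CPM and *Penk*, proenkephalin, 19.7 CPM, all with no count in clone 1. In the reverse direction *Gpr149*, an orphan receptor, had no count in WT in either condition and 15.4 CPM in stimulated clone 1, at least 335-fold higher.

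Uninduced cells gave a separate reading of the same clone against WT, from 6 other libraries. There 2155 genes passed, 15.1% of those tested, with 905 higher and 1250 lower. Of the genes higher in stimulated clone 1, 531 were also higher in uninduced clone 1, which is 39.4% of the stimulated and 58.7% of the uninduced list. Of the lower genes 833 were lower in both, 60.6% of the stimulated and 66.6% of the uninduced list. *Lcn2* (318 ± 22 CPM against 1.09 ± 0.413 CPM), *C3* (3591 ± 275 against 204 ± 23.2 CPM) and *Cxcl12* (2501 ± 64.6 against 332 ± 6.33 CPM) were higher in clone 1 before stimulation as well, and *Tgfbi*, *Wnt5a* and *Mest* were lower.

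The difference between clone 1 and WT was tested against itself in the 2 conditions as an interaction, which 1261 genes passed, 8.81% of those tested. Fat cell genes were among them. In uninduced cells *Pparg* had 49.5 ± 1.47 CPM in WT and 37.2 ± 3.48 CPM in clone 1, so stimulated WT was low while clone 1 held close to its uninduced value, and the log2 interaction was 3.48 (SE 0.138, edgeR adjusted p = 1.72e-18). *Plin4* behaved alike, with 42.7 ± 5.94 CPM in uninduced WT, 182 ± 17.1 CPM in uninduced clone 1 and an interaction of 8.08 (SE 0.269). *Hp* differed by only 0.24 on the log2 scale in uninduced cells, and its interaction was 5.82 (SE 0.12, adjusted p = 1.83e-20). Of the 22 tested lipid droplet and lipolysis genes, 15 had a positive called interaction and none a negative one.

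Negative interactions included contractile genes. *Acta2* was 274 ± 19.3 CPM in uninduced WT and 419 ± 6.63 CPM in uninduced clone 1, whereas stimulated WT stood at 2036 ± 84.4 CPM and stimulated clone 1 at 308 ± 7.3 CPM (log2 interaction -3.34, SE 0.0739, adjusted p = 3.78e-24). *Actb* was level in uninduced cells, at 1635 ± 73.7 and 1612 ± 48.6 CPM, and had an interaction of -1.21 (SE 0.0647). Of 32 contractile and actin genes 15 had a negative called interaction and none a positive one. *Fkbp5* was 9.63 ± 2.36 CPM in uninduced WT and 7.97 ± 0.448 CPM in uninduced clone 1, with an interaction of 2.82 (SE 0.146, adjusted p = 1.37e-13).

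**Figure D3:**
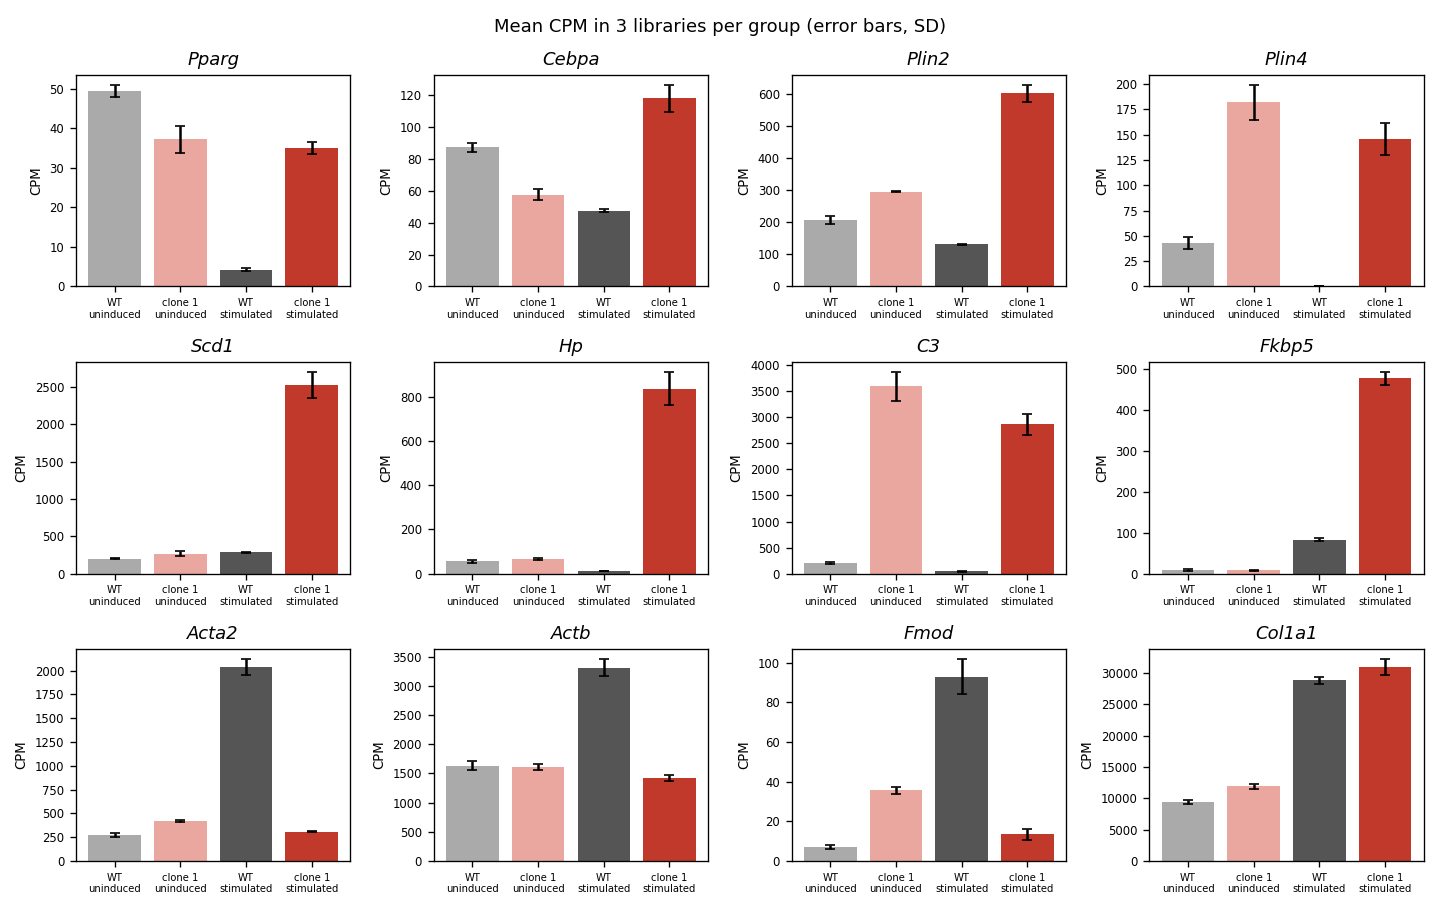
Mean CPM (bars from 0, error bars SD, 3 libraries each) of 12 genes in uninduced and stimulated WT and clone 1. *Pparg* and *Plin4* are low only in stimulated WT, *Acta2* and *Fmod* are high there, and *Col1a1* stands at 28863 and 30965 CPM in the stimulated groups.

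**Figure D4:**
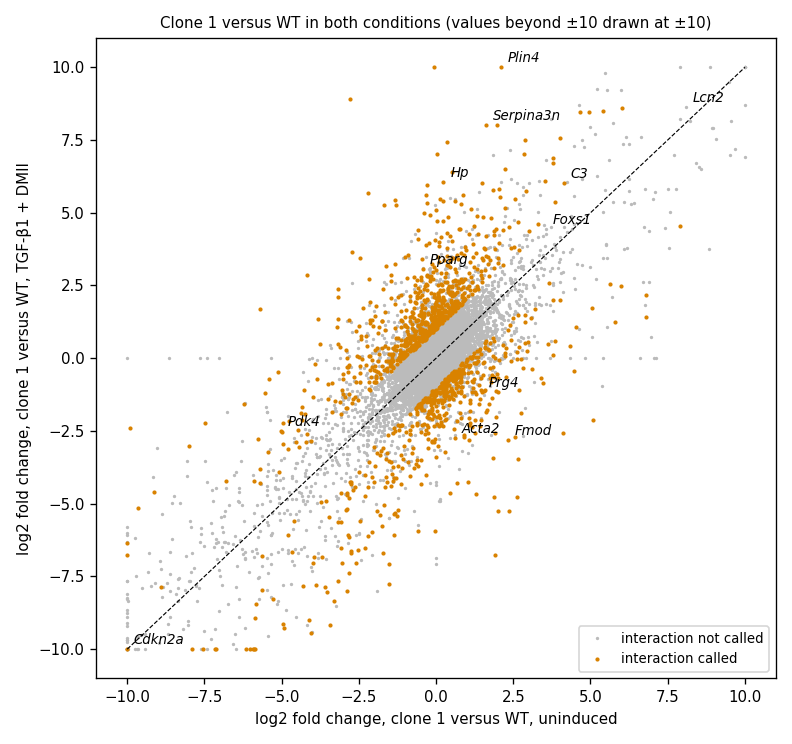
Log2 fold change of clone 1 against WT in uninduced cells (horizontal axis) and stimulated cells (vertical axis) for 14317 genes, with values beyond ±10 drawn at ±10. Orange marks the 1261 genes with a called interaction and the dashed line equal change, with *Lcn2* and *Cdkn2a* near it and *Plin4*, *Hp*, *Acta2* and *Fmod* away from it.

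Stimulated clone 1 and clone 2 differed directly in 1429 genes, 9.98% of those tested, 787 of them higher in clone 1 and 642 lower. *Nid1* separated the clones most clearly among the leading falls, with no count in clone 1 and 192 ± 13.7 CPM in clone 2, near the WT mean of 172 ± 3.28 CPM. *Ndn*, necdin, had no count in clone 1, 11.5 CPM in the clone 2 mean and 53.4 ± 2.9 CPM in WT. *Thy1*, a fibroblast surface marker, had 161 ± 6.21 CPM in clone 1, 49 ± 2.7 CPM in WT and 0.342 ± 0.192 CPM in clone 2 (log2 difference between clones 8.86, SE 0.142, edgeR adjusted p = 4.13e-28). *Cebpa* was above WT in clone 1 and below it in clone 2, at 118 ± 8.5, 47.6 ± 1.15 and 24 ± 0.798 CPM.

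For other leading genes no difference between the clones was called. *Hp* had 836 ± 75.1 CPM in clone 1, against 851 ± 56.7 CPM for clone 2 (log2 difference -0.03, SE 0.0699, adjusted p = 0.804), and *Acta2* 308 ± 7.3 and 323 ± 23 CPM (log2 difference -0.07, SE 0.0515, adjusted p = 0.276). By contrast *Plin4* was 146 ± 15.8 CPM in clone 1 and 10 ± 1.08 CPM in clone 2, both above WT, and *Fabp4* 20.4 ± 4.37 and 3.16 ± 0.945 CPM. Both clones are compared with the same WT libraries, so agreement between their differences from WT is not independent.

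Changes were not spread evenly over chromosomes. Taking genes whose mean reached 5 CPM, the median log2 fold change was 0.45 on chromosome 15 and -0.43 on chromosome 10, and the same clone uninduced had 0.46 and -0.41. In stimulated clone 2 these medians were 0.42 and 0.04. On chromosome 10, 17.4% of tested genes were lower and 6.2% higher. By windows of 25 neighbouring genes, the highest medians lay on chromosome 11, such as 0.96 from *Wbp2* to *Birc5* (116078573 to 117855743), and the lowest on chromosome X, at -1.24 from *Chm* to *Mum1l1* (113040593 to 139238335). Clone 2 had 0.69 and -0.20 in these windows. *Itgb4* (115974709 to 116008412) lies just before the chromosome 11 window, and the part of the regional shift in its value was not tested.

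**Figure D5:**
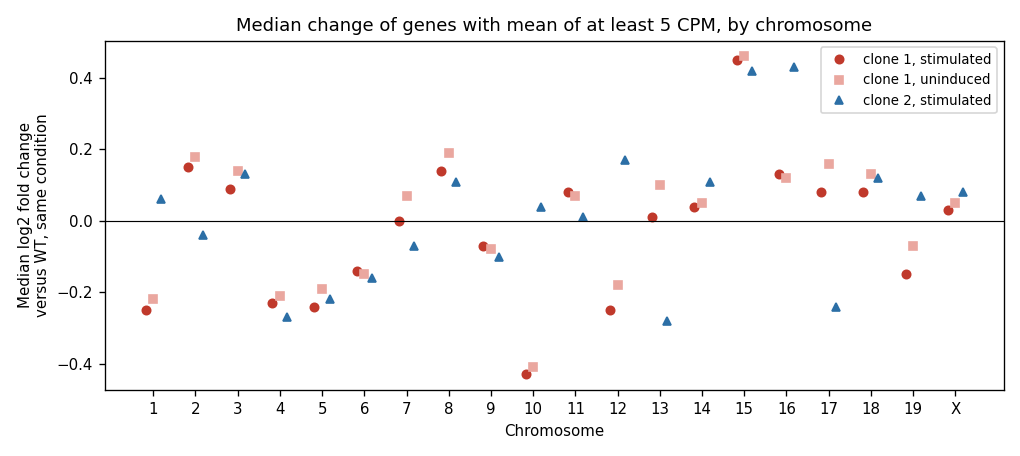
Median log2 fold change against WT on each chromosome, over genes whose mean reached 5 CPM, for stimulated clone 1 (circles), uninduced clone 1 (squares) and stimulated clone 2 (triangles). Chromosome 15 is at 0.45, 0.46 and 0.42 and chromosome 10 at -0.43, -0.41 and 0.04.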

How the data were processed

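Poly(A) RNA of 10T1/2 cells was sequenced by the authors as paired reads on an Illumina NovaSeq instrument and mapped to GRCm38 (mm10) with HISAT2. They deposited raw counts per gene, without normalization. How reads were counted (program, annotation release, strand) is not stated in what was read here, so reads from overlapping genes on either strand may not be told apart. Names that read as dates in the deposited file (27 genes) are not printed. Coordinates of genes are those of the deposited file, those of the promoter windows are from RefSeq, and exonic overlaps were computed from GENCODE M21.

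Counts of all 18 libraries were fitted together, with 1 mean for each of 6 groups, in edgeR 4.0.16 (R 4.3.3) after filterByExpr (minimum count 10) and TMM scaling, with robust glmQLFit and glmQLFTest. SE is the absolute log2 fold change divided by the square root of F. P-values were adjusted by Benjamini-Hochberg over 14317 genes. Contrasts were clone 1 against WT in stimulated and in uninduced cells, their difference, and clone 1 against clone 2 stimulated. A floor of 3 counts over a group (0.0442 CPM in stimulated clone 1, 0.0456 CPM in stimulated WT) covers counting error only. The fit was tested on simulated counts.

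Genes were named by a rule: *Foxs1*, the 8 largest rises and falls with a mean of at least 20 CPM, the 5 largest rises and 5 largest falls in mean CPM, the 3 largest called rises and falls of each of 31 lists with at least 5 CPM and a fixed set of anchors, genes with 3 counts or fewer in one group and at least 5 CPM in the other, and the 4 largest differences between clones and interactions in each direction. Further list members were named after their values were seen, to fill in counts. Members and lists were chosen with earlier results of these data known. Alternatives were DESeq2 1.42.0, other scaling, filters and thresholds, a replicate block, centring by chromosome and leaving out each library.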

Additional observations from a re-analysis of the deposited data

Results flagged for a closer look

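A total of 1261 genes differed between stimulated and uninduced cells in their clone 1 minus WT difference, by edgeR's test of the interaction. Of these, 49 were called in opposite directions in the 2 conditions. Among the genes named by the rule, 2 were of this kind. *Fmod*, the collagen-binding proteoglycan fibromodulin, had 7 ± 1.13 CPM in uninduced WT and 35.6 ± 1.88 CPM in uninduced clone 1, but 92.9 ± 8.81 CPM in stimulated WT and 13.3 ± 2.8 CPM in stimulated clone 1, a log2 interaction of -5.14 (SE 0.17, edgeR adjusted p = 8.19e-18). *Prg4*, the lubricating proteoglycan lubricin, had 3.88 ± 1.04 and 10.7 ± 1.57 CPM uninduced and 3046 ± 183 and 1364 ± 49.2 CPM stimulated, an interaction of -2.64 (SE 0.215, edgeR adjusted p = 1.84e-07). The stimulated call of *Prg4* did not survive the test against the fold threshold or centring on its chromosome. Groups of 3 libraries are too small for a check on single outlying samples.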

How the results depend on the processing

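With the log2 fold change tested against 1 (glmTreat), 811 genes were higher and 903 lower in stimulated clone 1, 643 differed between the clones, 543 in the interaction and 1278 in uninduced cells. With no fold threshold these counts were 4072, 4364, 6500, 4526 and 7657. Leaving out 1 library at a time gave 1256 to 1347 higher, 1289 to 1335 lower, 1317 to 1380 between clones, 1207 to 1423 in the interaction and 2060 to 2247 in uninduced cells. With the replicate number as a block the counts were 1332, 1366, 1398, 1232 and 2130. Libraries of the same number in stimulated WT and clone 1 had correlations of their deviations of only 0.0164 to 0.0343, so no large effect shared by number was seen. Counting noise enters these values, and they cannot show whether libraries of the same number were handled together, which the labels do not say. DESeq2, its size factors, no filter, a minimum of 1 CPM, fits of only the groups compared and centring by chromosome left these 5 counts within 1.5 times. No named gene reversed in any of these alternatives. Of 215 named genes, 9 lost their call with glmTreat and 10 with centring by chromosome, and 6 gained one with no fold threshold. *Tagln*, *Adipoq*, *Foxd2* and *Prg4* were among those lost with glmTreat, and *Actb*, *Foxd2* and *Prg4* among those lost with centring. Genes near the floor of 3 counts over a group, *Adipoq* among them, are limited by depth.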

Other observations

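Imprinted genes, expressed from only the maternal or the paternal copy, appeared among the genes without counts. A list of 36 was therefore drawn up after the values were seen, so it receives no test. Of 22 tested members 11 were lower in stimulated clone 1 and none was higher, with a median log2 fold change of -1.44 against -0.02 for all tested genes. Of all tested genes 9.6% were lower and 9.42% higher. *Mest* had 1918, 1888 and 1849 CPM in WT and 1.22, 0.811 and 1.64 CPM in clone 1, with 23.1% of its exonic bases under *Copg2*, and clone 2 had 67.8 ± 7.73 CPM. *Ndn*, *Peg3*, *H19* and *Rian* had 53.4 ± 2.9, 6.77 ± 1.06, 6.93 ± 0.564 and 12.7 ± 1.36 CPM in WT and no count in clone 1. In stimulated clone 2 they were lower than in WT as well, at 11.5 ± 0.327, 0.122 ± 0.0626, 0.222 ± 0.0406 and 0 CPM. Each was also called lower in uninduced clone 1, as were *Mest* and *Grb10*. *Grb10* fell less, from 645, 659 and 629 CPM to 177, 197 and 188 CPM, and stimulated clone 2 had 236 ± 4.98 CPM. *Copg2*, *Igf2r*, *Gnas* and *Impact* were among the 11 not called.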
